A study of Mus musculus with 2 samples.

Results

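Neutrophils carrying a small amount of specific granule mRNA were picked out of 2 single-cell libraries of mouse blood. A cell was kept when at least 200 genes were detected and at most 20% of its unique molecular identifiers (UMIs, 1 per captured mRNA molecule) were mitochondrial. It counted as a neutrophil when the calprotectin genes S100a8 and S100a9 made up at least 3% of its UMIs, Csf3r, Cxcr2 and Ly6g together had at least 1 UMI, and the monocyte genes Ccr2, F13a1, Vcan and Fn1 together had at most 5. The cells described here were chosen by their granule message: the sum of Ltf, Camp and Ngp was 0.1% to under 0.5% of their UMIs. They are called trace-granule neutrophils. There were 2578 among 26438 kept cells, 91 of them young and 2487 old. Since the 3 granule genes chose the cells, their summed share is a description and not a result.

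The young library came from blood of 2-month-old mice and the old library from 24-month-old mice, all labelled male. Strain and the number of animals are not given in the sources used here. After red cell lysis the sort took live cells positive for CD45, CD11b and Ly6G, and the labels name the BD Rhapsody microwell system. The deposited matrices carry Cell Ranger headers and 16-base barcodes, and the platform could not be settled from the sources used here. The series was made to study senescent neutrophils in aging, and the comparisons here are between ages and between neutrophils with different amounts of granule mRNA.

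Neutrophils fill their granules in a fixed order as they mature in the bone marrow. Precursors first make the proteases of the azurophil granules, then specific granule proteins such as lactoferrin (Ltf), the cathelicidin precursor (Camp) and neutrophilic granule protein (Ngp), and later gelatinase granule proteins such as the collagenase Mmp8 and the gelatinase Mmp9. Specific granule mRNA is shut off before release, so that a mature blood neutrophil carries the proteins but little of the message, whereas genes of circulating cells such as Csf3r, Cxcr2 and Il1b come up late.

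The young library held 13599 barcodes and 69599479 UMIs and the old library 14334 and 128826996, with medians of 4246 and 7265.5 UMIs per barcode. The libraries shared 53 barcode sequences, none of them a trace-granule neutrophil in both. With 1 library per age there is no test between ages, and cells of 1 library are not replicates, so no p-value is given. Levels are UMIs summed over cells and scaled to counts per 1e6 UMIs (CPM), intervals in parentheses are exact 95% intervals (Poisson for CPM, Clopper-Pearson for shares) that cover counting error only, and log2 ratios have 1 CPM added to both sides. A gene counted as higher or lower from 1.5-fold, among genes at 50 CPM or more in at least 1 of the groups compared. Where the shift of the median gene matters, ratios relative to it are given too.

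Trace-granule neutrophils were rare in the young blood and common in the old blood. They were 91 of 9439 gated young neutrophils (0.964%, 0.777 to 1.18) and 2487 of 10127 gated old neutrophils (24.6%, 23.7 to 25.4). The share gap extended to the cells with more granule mRNA. Intermediate neutrophils, at 0.5% to under 5%, were 0.731% of the young and 17.4% of the old gated cells. Granule-high neutrophils, at 5% or more, were 0.307% and 5.78%. Granule-low neutrophils, under 0.1%, made up 98.0% and 52.2%.

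The band is a range cut from a continuous share and not a separate population. A typical trace-granule neutrophil held 13 (young) or 11 (old) granule UMIs at the median, with ranges of 1 to 84 and 1 to 137. In the old library 967 cells lay just under the lower limit (0.08% to 0.1%) and 649 just over it (0.1% to 0.12%), against 22 and 17 in the young library. At the upper limit 86 old cells lay just under and 73 just over, against 1 and 3 young cells. Most old cells of the band were near its lower end: 1645 of 2487 (66.1%) were under 0.2%.

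**Figure D1:**
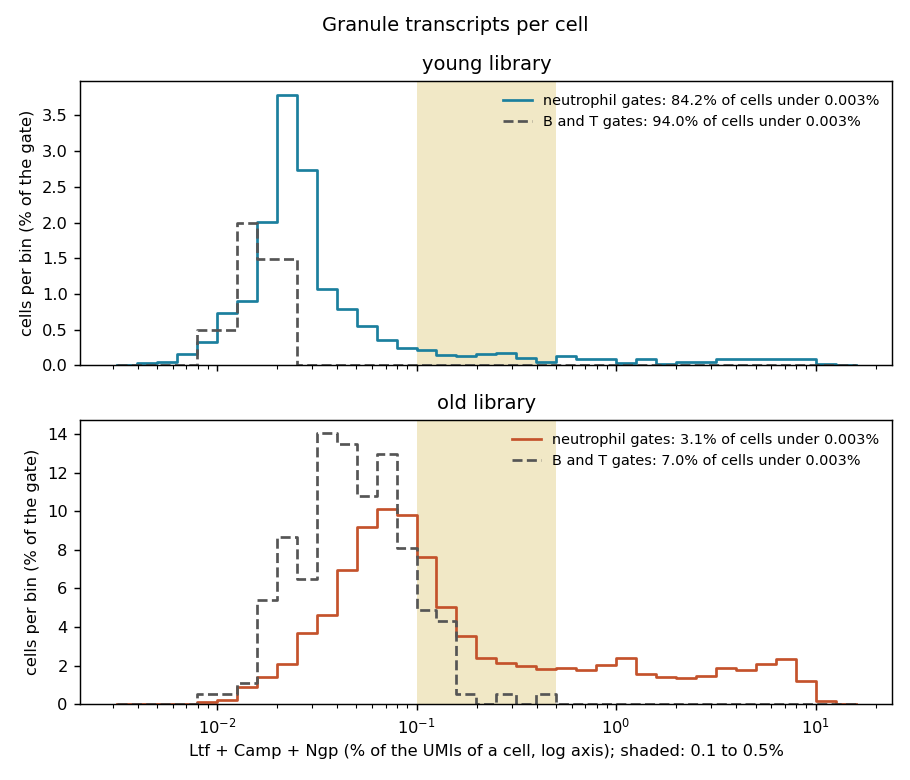
Distribution of the summed Ltf, Camp and Ngp share per cell (x, percent of UMIs, log axis) in the young (top) and old (bottom) library, as a percentage of the cells in each gate per bin (y), for neutrophils (solid) and for B- and T-gated cells (dashed). The shaded band holds 91 young and 2487 old neutrophils. In the old library B- and T-gated cells reach into it, mostly near its lower end, with the highest at 0.472%.

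Lymphocytes are not known to make these granule proteins, so their granule UMIs were taken as a measure of background, which can hold free RNA and doublets. Lymphocytes were taken as cells with at least 5 UMIs of Cd79a, Cd79b and Ms4a1 (B-gated) or of Cd3d, Cd3e, Cd3g and Trac (T-gated), under 5 of the other set and none of Csf3r and Cxcr2, giving 201 young and 185 old cells. They held a mean of 0.0647 (young) and 3.51 (old) granule UMIs per cell, at median depths of 6308 and 6984 UMIs. None of the 201 young lymphocytes fell in the 0.1% to 0.5% band (upper bound 1.82%), whereas 20 of the 185 old ones did (10.8%, 6.73 to 16.2). Of the young trace-granule neutrophils 83 (91.2%) had more granule UMIs than the 99th percentile of the lymphocytes of their library, and of the old ones 969 (39.0%). Counting only those 969 cells, the old share was 9.57% of gated neutrophils, and it was 14.5% when the median granule share of B-gated cells was first subtracted from each cell. How far such background placed old cells in the band was not tested beyond these counts.

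Neutrophil genes were detected in most trace-granule cells of both libraries. The rule asked for a UMI of Csf3r, Cxcr2 or Ly6g, so detection of these 3 is partly set by the choice of cells and is a description, whereas Mmp8 and Retnlg were not part of the rule. Csf3r, the receptor for granulocyte colony-stimulating factor, was detected in 100% of the young and 98.9% of the old cells. The chemokine receptor gene Cxcr2 was detected in 92.3% and 97.3%, and Ly6g, the gene of the antigen used for the sort, in 76.9% and 84.7%. The granule collagenase gene Mmp8 was detected in 91.2% and 91.6%, and Retnlg, which encodes a resistin-like protein secreted by neutrophils, in 100% and 99.9%. B-gated cells also had Retnlg in 63.0% (young) and 100% (old) and Mmp8 in 8.90% and 36.7%. Detection of Retnlg alone thus does not separate these cells from the background. At the median they held 6707 (young) and 7723 UMIs (old), above the 4227 and 6136 of granule-low cells. However, 15 young (16.5%) and 96 old cells (3.86%) had under 2000 UMIs. Of granule-low cells 0.659% and 1.08% were that shallow, and of intermediate cells 0% and 5.61%. Among the trace-granule cells 12 young and 56 old had under 1000 UMIs, where 1 granule UMI is enough to reach the band.

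Markers of other cell types were present in part of them. At least 0.5% of UMIs came from B, T, NK, platelet or erythroid markers in 19 young (20.9%) and 374 old cells (15.0%). The same held for 6.86% of young and 11.1% of old granule-low cells, and for 2.90% and 19.1% of intermediate cells. Summed B cell markers stood at 283 CPM in the young and 56.3 CPM in the old cells, with all 10 markers detected in both, and the median cell held none. Erythroid markers stood at 2576 and 7272 CPM, platelet markers at 189 and 573, T cell markers at 41.3 and 24.9, and NK cell markers at 34.9 and 10.8. The median young trace-granule cell held 1255 CPM of erythroid markers and the 90th percentile was 38001. Young granule-low and intermediate cells had 90th percentiles of 2556 and 1466. In the old library these were 5128 in trace-granule, 2922 in granule-low and 31934 in intermediate cells. Dendritic cell markers stood at 273 and 74.4 CPM, non-classical monocyte markers at 502 and 470, mostly the integrin gene Itgal, and macrophage markers at 46.0 and 44.1. Basophil or mast cell markers stood at 1176 and 1277 CPM, of which Hdc gave 964 and 1089. The basophil genes Mcpt8 and Prss34 were at 0 in the young cells, while all 10 markers had a UMI in the old cells. Eosinophil markers stood at 4.76 and 7.58 CPM, with Prg2 and Epx at 0 in both. Classical monocyte markers stood at 695 and 758 CPM, of which Ly6c2 alone gave 570 and 510, and Ccr2, Vcan and Saa3 were at 0 in the young cells, where the rule had capped Ccr2 and Vcan. Neutrophil progenitor markers summed to 46.0 and 43.4 CPM, led by Cebpe, with Mpo and Ctsg at 0 in the young cells. All 10 progenitor and all 10 classical monocyte markers had a UMI in the old cells.

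The granule message of these cells was mostly Ngp. Ngp made up 84.1% (82.1 to 85.9) of the granule UMIs of young and 78.0% (77.6 to 78.4) of those of old trace-granule neutrophils. In granule-high cells the share was 48.2% young and 48.4% old, and in intermediate cells 57.4% and 61.6%. Granule-low cells had 67.3% and 59.7%. Among the 4 granule classes the trace-granule cells had the highest Ngp share in both libraries, but ranges just outside the band came close. Young cells at 0.05% to 0.1% had 81.5% (77.2 to 85.2), and old cells at 0.5% to 1% had 77.7% (77.3 to 78.1). Camp, which encodes an antimicrobial peptide precursor, gave 13.4% and 13.6% of their granule UMIs, and Ltf, which encodes an iron-binding protein, 2.56% and 8.36%. Per cell this was 14.1 Ngp, 2.24 Camp and 0.429 Ltf UMIs in the young and 13.2, 2.30 and 1.41 in the old library.

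The mixture in lymphocytes was different. Those of the old library had Ngp at 54.4% (49.4 to 59.3, B-gated) and 50.6% (44.1 to 57.2, T-gated) of granule UMIs, from 412 and 237 UMIs. Less the UMIs per B-gated cell, Ngp made up 84.1% of the granule UMIs of old and 84.2% of those of young trace-granule neutrophils. This subtraction was not scaled for depth, at medians of 6485 UMIs in old B-gated and 7723 in old trace-granule cells. As the 3 genes chose the cells, the 2 values are a description and no test of likeness. Young lymphocytes held only 8 and 5 granule UMIs, too few for a share. Within the old band the Ngp share was 71.3% below a granule share of 0.2% and 82.3% above it. All 3 genes were detected together in 10 of the 91 young and 1443 of the 2487 old cells (58.0%), and only 1 of them in 36.3% and 6.31%. Part of that gap lies in Ltf, which was detected in 17.6% of young and 69.1% of old trace-granule cells and in 45.8% of old B-gated cells.

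**Figure D2:**
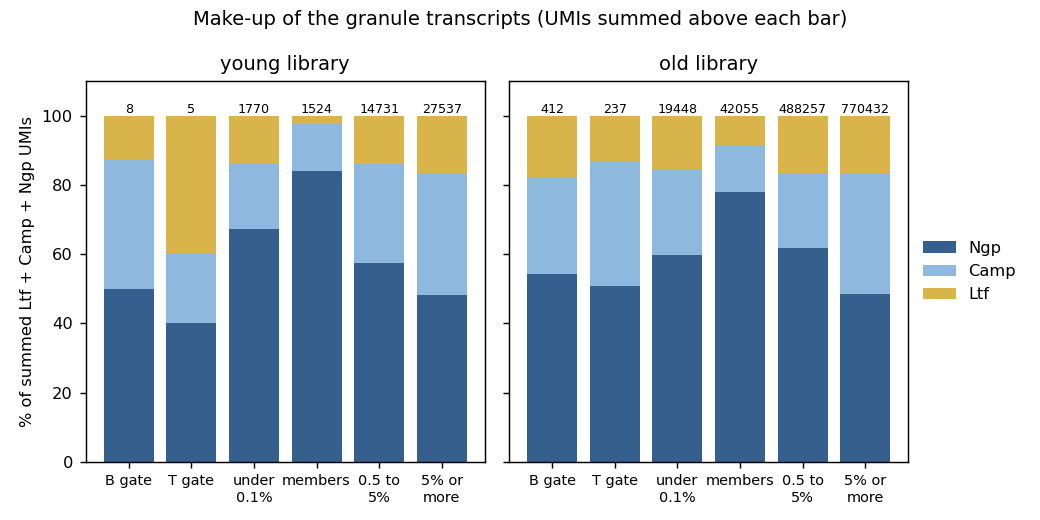
Share of Ngp, Camp and Ltf (y, percent of the summed granule UMIs) in B- and T-gated cells and in the 4 neutrophil classes of the young (left) and old (right) library, with the number of granule UMIs above each bar. Members are the trace-granule neutrophils, whose bars have the tallest Ngp part, 84.1% young and 78.0% old.

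The 3 genes lie on chromosome 9, Ngp at chr9:110419747-110423012 on the plus strand, Ltf at chr9:111019271-111042767 on the plus strand and Camp at chr9:109847379-109849617 on the minus strand (GRCm38.p6). Because these genes set the band and Ngp led it, the stretch just upstream of each annotated gene start is shown, 5′ to 3′ on the strand of the gene, from RefSeq promoters of GRCm38.p6 cut before the gene start. Capitals mark matches to TTNNGCAA or its reverse complement TTGCNNAA, a pattern of the type bound by C/EBP factors, which drive granule genes in maturing neutrophils. The pattern was chosen after the matches of several patterns had been seen, and a match describes the letters and no binding. The stretches are chr9:110419558-110419746 for Ngp, chr9:111019042-111019270 for Ltf and chr9:109849618-109849706 for Camp.
Ngp: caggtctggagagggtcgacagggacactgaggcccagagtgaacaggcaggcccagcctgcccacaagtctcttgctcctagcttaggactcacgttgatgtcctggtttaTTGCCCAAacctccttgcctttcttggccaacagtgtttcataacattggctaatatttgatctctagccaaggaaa
Ltf: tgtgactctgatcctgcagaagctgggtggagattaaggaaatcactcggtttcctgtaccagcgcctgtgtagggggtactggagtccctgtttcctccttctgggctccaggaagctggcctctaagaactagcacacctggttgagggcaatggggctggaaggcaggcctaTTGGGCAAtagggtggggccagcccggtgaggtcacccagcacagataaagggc
Camp: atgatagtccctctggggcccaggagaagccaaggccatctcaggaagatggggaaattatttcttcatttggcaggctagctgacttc
Ngp had 1 match 77 bases and Ltf 1 match 54 bases before the gene start, and the 89 bases for Camp held none. In the full 250 bases before the RefSeq start Ngp had 2 matches, Ltf 1 and Camp 0, and 9.56% of 32851 RefSeq promoters held the pattern in a window of that length.

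The 5 genes given with the label as marks of these cells did not follow 1 pattern along the granule share. Prok2 and Mmp8 were higher in trace-granule than in granule-low neutrophils of both libraries. Retnlg was higher in the young library, with a log2 ratio of 2.11, and its old ratio of 0.35 was under the 1.5-fold limit. Wfdc17 and Ifitm1 were lower than in granule-low cells in the young library, at -1.77 and -1.17 log2, and their old ratios of -0.33 and -0.42 were under the limit. On GRCm38 the annotation places Prok2 at chr6:99711299-99726392 (minus strand), Retnlg at chr16:48872621-48874496 (plus strand), Mmp8 at chr9:7558456-7568485 (plus strand), Wfdc17 at chr11:83703991-83706268 (plus strand) and Ifitm1 at chr7:140967221-140969825 (plus strand), all annotated as protein-coding. Prok2 encodes a prokineticin, a chemokine-like secreted protein of myeloid cells. Its level in the young library was 4.84 CPM in granule-low, 137 (109 to 169) in trace-granule and 148 in intermediate cells. Old cells had 343, 583 (572 to 593) and 388 CPM in the same order. Of these 3 old classes the trace-granule cells had the highest Prok2 level, but less than 1.5-fold that of intermediate cells (0.56 log2), and the young trace-granule and intermediate cells had overlapping intervals. Along the granule share, with Ltf, Camp and Ngp left out of the total, old cells had 248 CPM of Prok2 below 0.02%, 677 CPM at 0.3% to 0.4% and 88.5 CPM at 5% or more. Young cells had their highest Prok2 level above the band, 290 CPM at 0.5% to 1%, against 179 CPM at 0.2% to 0.3%.

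Retnlg had its highest level along the granule share inside the band in both libraries. Young cells had 7388, 31833 (31394 to 32277) and 25815.5 CPM in granule-low, trace-granule and intermediate neutrophils, and old cells 22654, 28790.2 (28716 to 28865) and 20809. In granule-high cells it stood at 7309.7 CPM in the young and 5533 CPM in the old library. Mmp8 was higher still in intermediate cells, but in granule-high cells it stood at 4142 CPM in the young and 1492 CPM in the old library. It stood at 845, 3508 (3363 to 3657) and 4935 CPM in the young and at 1444, 2346 (2325 to 2367) and 2948 CPM in the old classes.

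Wfdc17, a small secreted protein with a whey acidic protein domain, and Ifitm1, an interferon-induced transmembrane protein, had their highest level of the 3 classes in granule-low cells. Young granule-low, trace-granule and intermediate cells had 1881, 549 (493 to 610) and 380 CPM of Wfdc17, and old cells 9891, 7858 (7819 to 7897) and 2503. Ifitm1 stood at 1944, 862 (791 to 938) and 321 CPM in the young and at 7375, 5498 (5466 to 5531) and 2004 CPM in the old classes. Both were higher in the old library than in the young one in each of the 11 ranges of granule share plotted. Old B-gated cells held 364 CPM of Wfdc17, 306 of Ifitm1, 958 of Retnlg, 63.4 of Mmp8 and 10.2 of Prok2, and young B-gated cells held 43.7, 62.1, 174, 15.0 and 0. How much of this was free RNA and how much the cells' own was not tested.

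**Figure D3:**
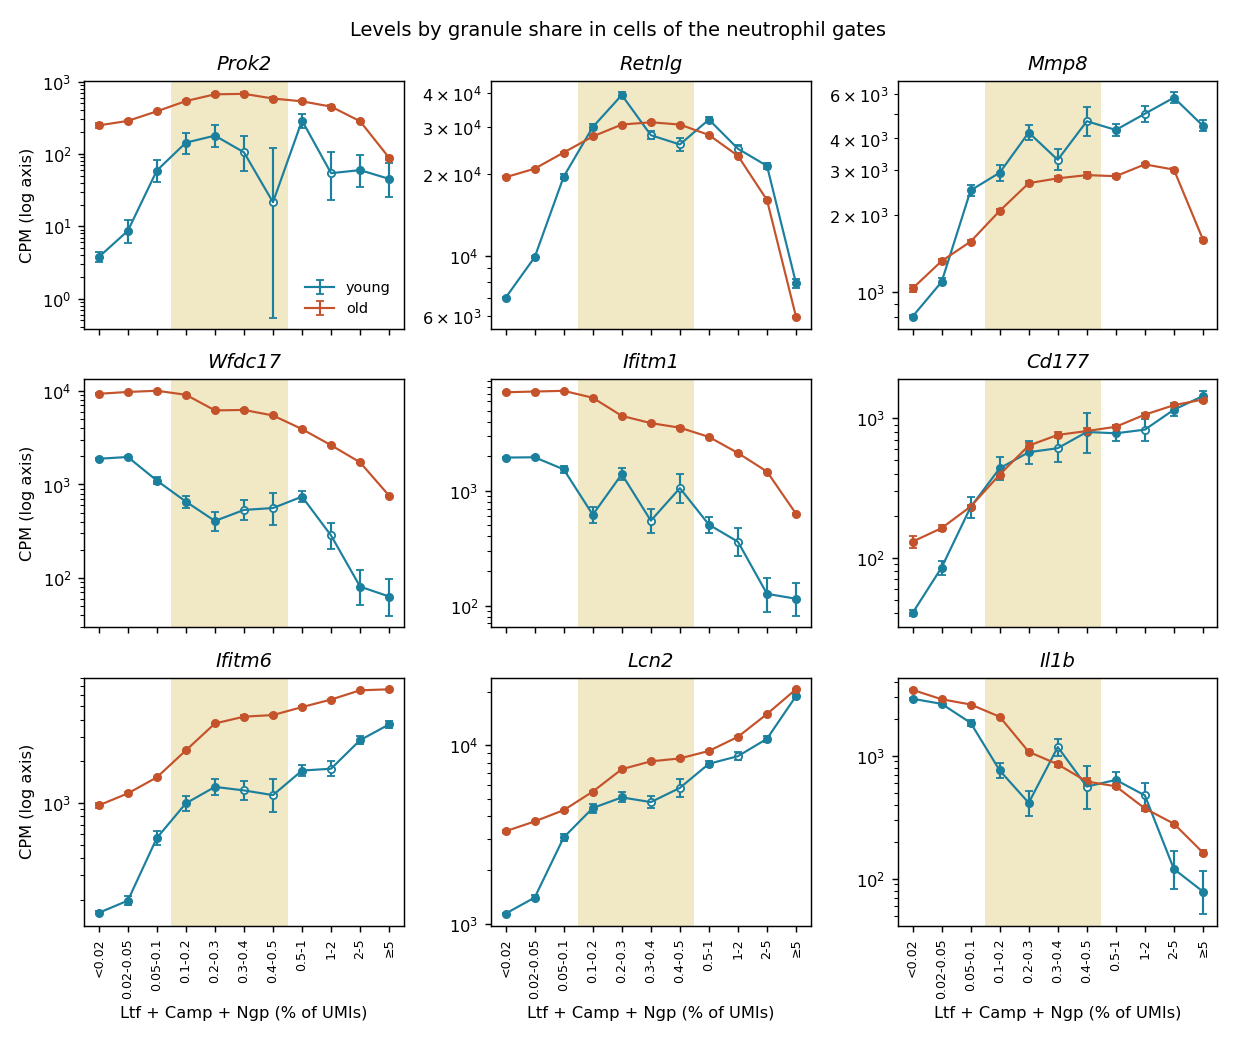
Level of 9 genes (y, CPM, log axis) against the summed Ltf, Camp and Ngp share of a cell (x, 11 ranges in percent of UMIs) in gated neutrophils of the young and old library, with exact 95% Poisson intervals. The band of the trace-granule cells is shaded and open points rest on under 20 cells. Retnlg has its highest point inside the band in both libraries. From the first to the last range of the band Cd177, Ifitm6 and Lcn2 climb and Wfdc17, Ifitm1 and Il1b decline in the old library, whereas the young points, on 46 cells or fewer each, do not follow 1 direction for Wfdc17, Ifitm1, Il1b, Ifitm6 and Lcn2.

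Compared with granule-low neutrophils of the same library, trace-granule neutrophils had more mRNA of specific granule genes and of membrane genes of maturing neutrophils. They had less of Il1b, of genes first made on stimulation and of part of the genes reported for neutrophils aged in the circulation. For this comparison and the next, Ltf, Camp and Ngp were taken out of the totals. With these 3 left in, Cxcr2 stood at 1676 CPM in granule-low and 1202 in trace-granule cells of the young library. Old cells had 1249 and 1134 CPM of Cxcr2. Csf3r stood at 4602 and 1698 CPM in the young and at 2479 and 1797 in the old library. Of 2336 genes, 34 were higher in both libraries (1.46%) and 53 lower in both (2.27%). Relative to the median gene the counts were 63 higher and 14 lower, and without S100a8 and S100a9 in the total 62 and 32. The contrast was wider in the young library, where 7.69% of 2978 genes were higher and 31.1% lower and the median gene stood at -0.34 log2. In the old library 1.58% of 2409 genes were higher and 2.53% lower, with a median of -0.15. Taking only trace-granule cells above the lymphocytes' 99th percentile of granule UMIs, 69 genes were higher and 266 lower in both libraries. That filter used the same 3 genes that chose the cells and left the granule-low cells unchanged. Its counts are thus a description and no test of background.

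Among the genes higher in both, Itgb2l, a neutrophil-restricted integrin beta chain on chromosome 16, came first. It stood at 4.75 CPM in granule-low and 130 (104 to 162) in trace-granule cells of the young library, and at 16.9 and 71.4 (67.7 to 75.2) in the old. Cd177, the surface glycoprotein of neutrophils that partners with that integrin family, stood at 46.1 and 539 CPM in the young and at 201 and 523 in the old, and was detected in 76.9% and 73.7% of the trace-granule cells. Ifitm6 stood at 169 and 1149 CPM in the young and at 1367 and 3058 in the old library. Ly6c2, a surface protein shared by monocytes and immature neutrophils, stood at 85.3 and 571, then 235 and 511 CPM. Serpinb1a, a serpin that blocks neutrophil elastase, was 8.47-fold higher in the young and 2.73-fold higher in the old trace-granule cells. Adpgk, an ADP-dependent glucokinase, was 23.2-fold and 2.51-fold higher, the actin-capping gene Capg 4.50-fold and 2.12-fold, the annexin gene Anxa3 6.45-fold and 2.41-fold, and Ceacam10 3.15-fold and 2.00-fold. Abca13, at 15.6 and 65.2 then 22.1 and 55.2 CPM, and Syne1, 6.01-fold and 1.86-fold higher, were also among the 12 leading genes. Stfa3, a cysteine protease inhibitor of the stefin family, was 15.2-fold and 2.81-fold higher, but it was detected in only 6 of the 91 young cells, 1 of which gave 55.7% of its UMIs.

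The genes lower in both included the inflammatory gene Il1b and the adhesion gene Itga4. Of the adhesion gene list 5 of 13 were lower and 1 higher in the young library, and 1 of 12 was lower in the old. The medians of that list were 0.01 and -0.12 log2. Il1b, which encodes the cytokine interleukin-1 beta, stood at 2868 CPM in granule-low and 730 (665 to 800.3) in trace-granule cells of the young library, and at 2765 and 1600.0 (1583 to 1618) in the old. Itga4, the alpha-4 integrin chain, stood at 590 and 140 CPM in the young and at 276 and 166 in the old. The signal-regulatory gene Sirpb1c stood at 390 and 95.5, then 229 and 139 CPM, and the MHC class I-like gene H2-Q10 at 492 and 189, then 193 and 113. Apoe, the apolipoprotein E gene, led this side at 145 and 11.1 CPM in the young and 187 and 97.3 in the old, a level at which old B-gated cells had 359. Prr5l, Cass4, Gngt2, Maml3, Ppm1h, Foxn3 and Hist1h2bc completed the 12, with log2 ratios between -0.72 for Hist1h2bc in the old library and -2.73 for Prr5l in the young one. With equal weight per cell, Apoe, Ppm1h, Gngt2, Maml3, Foxn3, Sirpb1c and Hist1h2bc no longer reached 1.5-fold in the old library, and Gngt2 not in the young one.

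By gene list, specific granule genes other than the 3 used for the band were higher in the trace-granule cells: 11 of 12 measured in the young (median 1.54 log2) and 7 of 12 in the old library (median 0.72), with none lower. They include Lcn2, the siderophore-binding lipocalin, at 1184 and 4815 CPM in young and 4049 and 6442 in old granule-low and trace-granule cells. Genes of immature neutrophils gave 14 of 16 higher and 2 lower in the young and 11 of 17 higher in the old library. The 2 lower ones were Ifitm1 and Ifitm2, and part of this list was drawn up with results of these data known. Of the gelatinase granule genes 5 of 11 were higher in the young and 3 of 11 in the old library, with 1 lower in both, Vnn3. Of 4 azurophil granule genes measured in the young library 1 was higher and 2 were lower. All 5 measured in the old library were within 1.5-fold. Immediate early genes, the transcription factors and feedback regulators first made on stimulation, were lower: 16 of 16 in the young (median -1.11) and 6 of 16 in the old library (median -0.46), among them Atf3 at -2.83 and -1.11 and Egr1 at -1.71 and -0.95 log2. Genes reported for neutrophils that have aged in the circulation were lower in 10 of 15 in the young and 7 of 14 in the old library, with Cd24a higher in the young, at 1.07. Interferon-stimulated genes were lower in 16 of 27 in the young and 1 of 26 in the old library, with medians of -0.58 and -0.23 log2 relative to the median gene. Pattern recognition genes were lower in 8 of 13 and 1 of 13 (relative medians -0.57 and -0.06), and endoplasmic reticulum folding and secretion genes in 9 of 17 and 0 of 18 (-0.27 and 0.02). Of all genes 31.1% (young) and 2.53% (old) were lower, so the old counts of these 3 lists are near the background, and the difference between libraries was not tested.

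Against intermediate neutrophils the trace-granule cells stood on the other side. They had less message of specific granule proteins and of genes that end with maturation. They had more of immediate early, interferon-stimulated and pattern recognition genes. Of 2189 genes, 153 were higher in both libraries (6.99%) and 66 lower in both (3.02%). By library, 11.5% of 2671 genes were higher and 7.38% lower in the young and 15.8% of 2309 higher and 4.89% lower in the old. A single gene (0.0457%), the kinase gene Sik2, was lower in the young and higher in the old library, with log2 ratios of -0.62 and 0.61. The split turned when ratios were taken relative to the median gene, with 85 higher and 106 lower, and without S100a8 and S100a9 in the total, with 105 and 132. The median gene stood at 0.08 (young) and 0.20 log2 (old).

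Chil3, a chitinase-like lectin gene of neutrophil precursors, had the widest gap, at 764 CPM in intermediate and 38.2 (24.5 to 56.8) in trace-granule cells of the young library and at 1058 and 197 (191 to 204) in the old. Cebpe, the transcription factor that switches on specific granule genes, stood at 95.6 and 28.6, then 57.5 and 16.1 CPM. Cybb, the catalytic subunit of the NADPH oxidase, stood at 861 and 301, then 792 and 176 CPM. Serpinb1a stood at 209 and 68.4, then 368 and 85.9 CPM, and Abca13, Golim4, Ly75 and Lta4h, the leukotriene A4 hydrolase gene, were also lower in both. Lta4h in the young trace-granule cells rested on 9 cells with a UMI.

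On the other side, Cd101, an inhibitory receptor used to mark mature neutrophils, stood at 69.3 CPM in intermediate and 298 (256 to 343) in trace-granule cells of the young library and at 37.8 and 133 (128 to 139) in the old. The chemokine gene Ccl6 stood at 775 and 2038, then 451 and 1499 CPM, and was detected in 100% of the young trace-granule cells. Ifitm1 stood at 327 and 864, then 2049 and 5510.0 CPM. The sialyltransferase genes St3gal6 and St8sia4 were 2.64-fold and 2.62-fold higher in the young and 3.07-fold and 3.20-fold in the old. Tspan13, H2-Q10 and Maml3 were also higher in both, Tspan13 with log2 ratios of 1.56 and 1.79. Il1b was 1.83-fold and 4.20-fold higher than in intermediate cells, and Csf3r had log2 ratios of 0.83 and 1.28.

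**Figure D4:**
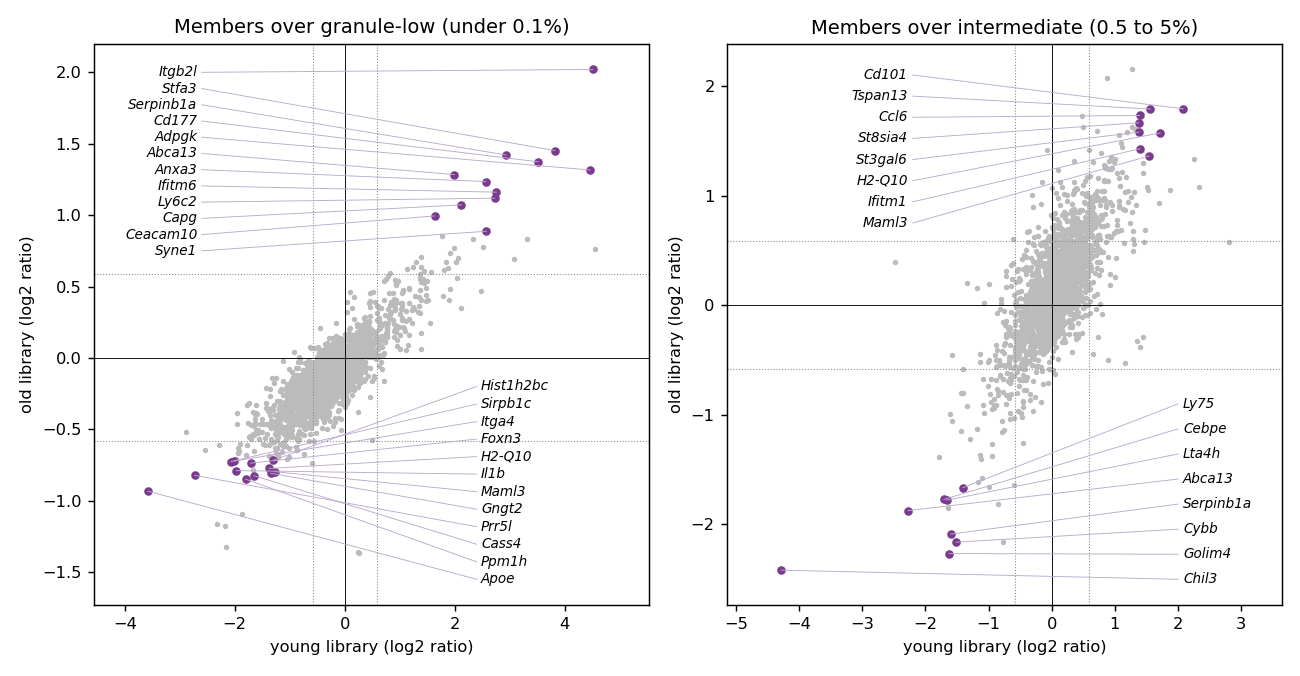
Each point is a gene, with its log2 ratio in the young (x) and old (y) library for trace-granule over granule-low neutrophils (left) and over intermediate neutrophils (right). Dotted lines mark 1.5-fold and the named points are the leading genes, such as Itgb2l and Cd177 at the upper right of the left panel and Chil3 at the lower left of the right panel.

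Specific granule genes were lower than in intermediate cells in 7 of 12 measured in the young (median -0.86 log2) and 10 of 13 in the old library (median -0.95). Gelatinase granule genes were within 1.5-fold in 8 of 11 in each library, with 2 lower and 1 higher. Azurophil granule genes were higher in 2 of 3 in the young and 1 of 5 in the old library, and none was lower. Immediate early genes were higher in 6 of 14 and 11 of 14, with medians of 0.48 and 0.94, and none was lower. Interferon-stimulated genes were higher in 14 of 27 and lower in 2 in the young, and higher in 12 of 24 with none lower in the old library. Pattern recognition genes were higher in 7 of 12 and 7 of 13, among them the inflammasome sensor Nlrp3 at 0.59 and 1.42 log2 and the lectin receptor Clec4d at 0.85 and 1.25. Of the immature neutrophil genes, 6 of 17 were lower in the young and 9 of 17 in the old library, and Ifitm1 was the 1 that was higher in both. Genes of neutrophils aged in the circulation were higher in 2 of 13 and lower in 1 in the young library, near the share of all genes, and higher in 7 of 13 and lower in 1 in the old. Against both neighbours the trace-granule cells thus lay between granule-low and intermediate cells for Lcn2, Cd177, Cybb, Il1b, Ccl6 and Cd101 in both libraries, and outside that range for Retnlg in both.

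Between ages, trace-granule neutrophils of the old library had more mRNA of Wfdc17 and of the Ifitm genes, of glycolytic enzymes and of several secreted proteins. Of 2603 genes, 177 were higher (6.8%) and 688 lower (26.4%) in the old cells, with the median gene at -0.27 log2. Relative to the median gene, 368 were higher and 274 lower. The same contrast gave 5.55% higher and 37.8% lower in granule-low cells and 5.41% and 36.3% in intermediate cells, but these shares come from unequal numbers of cells and genes and the difference was not tested.

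Wfdc17 had the largest ratio, 14.3-fold higher in the old trace-granule cells (3.84 log2). It was detected in 65.9% of the young and 99.2% of the old cells, and its log2 ratio was 2.39 in granule-low and 2.72 in intermediate cells. Ifitm1 was 6.38-fold higher (2.67 log2), against 1.92 in granule-low and 2.64 in intermediate cells. Igfbp6, a binding protein of insulin-like growth factors, stood at 6.35 CPM (1.73 to 16.3) young and 85.5 (81.4 to 89.6) old, and the cytokine gene Mif at 6.35 (1.73 to 16.3) and 75.7 (71.9 to 79.6). Each of those genes rested on 3 young cells with a UMI. Apoe stood at 11.1 and 97.1 CPM, the triosephosphate isomerase gene Tpi1 at 12.7 and 85.7, and Steap4, a metalloreductase, at 30.2 and 189. Chil3 stood at 38.1 (24.4 to 56.7) and 197 (191 to 203), while B-gated cells held 3.45 and 97.4 CPM of Chil3 and 231 and 359 CPM of Apoe, and the part of that background in the ratios was not tested. Camk2d, a calcium-dependent kinase gene, stood at 12.7 and 73.4, and Cd244a, a receptor of the SLAM family, at 54.0 and 260 CPM. Ppbp, a platelet chemokine gene, stood at 19.0 and 117 CPM beside summed platelet markers of 189 and 573. Cd14, the lipopolysaccharide co-receptor, stood at 44.4 and 228 CPM. Prok2 was 4.27-fold and Ly6g 2.28-fold higher in the old cells, while Cd177, Csf3r, Cxcr2 and Retnlg had log2 ratios of -0.05, 0.08, -0.08 and -0.14.

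Sugct, a mitochondrial CoA transferase gene, had the lowest ratio, at 641 CPM (580.3 to 707) in young and 3.36 (2.61 to 4.27) in old trace-granule cells. Granule-low cells had 865 and 4.43 CPM, and the difference between the classes was not tested. The formyl peptide receptor gene Fpr3 stood at 88.9 (67.1 to 115) and 9.23 CPM (7.95 to 10.7), and Dmd at 58.7 and 0.753. Fmnl2, Sntb1, Slc24a3, Aoah, Fchsd2 and Sfmbt2 were between 5.08-fold and 12.5-fold lower in the old cells. Vmn2r96 stood at 52.4 and 2.86 CPM, on 5 young cells of which 1 gave 48.5% of the UMIs. The B cell genes Ebf1 and Cd74 stood at 55.6 and 6.67 and at 130 and 26.6 CPM, beside B cell markers of 283 and 56.3 CPM. A single young cell gave 88.6% of the Ebf1 and 85.4% of the Cd74 UMIs. Without cells that carried markers of other types, Ebf1 had a log2 ratio of -0.65 in place of -2.88, and Cd74 of 1.45 in place of -2.25.

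Glycolysis genes were higher in the old trace-granule cells in 11 of 19 measured, with 1 lower, Hk3 at -0.60, and a list median of 0.69 log2 (0.96 relative to the median gene). The same contrast gave 12 of 19 higher in granule-low cells (relative median 1.31) and 5 of 19 in intermediate cells (0.70). Aldolase (Aldoa) stood at 386 and 692 CPM, Gapdh at 1233 and 2064, the pyruvate kinase gene Pkm at 590.5 and 890.2 (0.59 log2), and the glucose transporter gene Slc2a1 had a log2 ratio of 1.57. Immature neutrophil genes were higher in 9 of 17 with none lower, a list that Wfdc17 is not part of but Ifitm1, Ifitm2 and Ifitm6 are. In granule-low cells 16 of 17 of them were higher and in intermediate cells 8 of 17. Ifitm2 stood at 1430.2 and 3322 CPM and Ifitm6 at 1146 and 3051. Ggt1, a gamma-glutamyltransferase gene, stood at 19.0 and 79.2 CPM, Acvrl1, an activin-like receptor gene, at 34.9 and 81.6, and Lipg, the endothelial lipase gene, at 7.94 and 46.8. Secreted small protein genes were higher in 7 of 15, including Lrg1 at 648 and 1528 CPM, S100a6 at 9361 and 16736.5, and lower in 2, Stfa2 and Stfa3. A single young cell gave 55.7% of the young Stfa3 UMIs, and the ratio without it was not computed. Of the secreted small protein genes 11 of 15 were higher in granule-low and 7 of 15 in intermediate cells. Genes of folding and secretion in the endoplasmic reticulum were higher in 6 of 16 and lower in 1. They were higher in 1 of 18 and lower in 3 in granule-low cells, and higher in 3 of 18 in intermediate cells. These differences between classes were not tested.

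Interferon-stimulated genes were lower in 9 of 27 and higher in 1, Stat2, with a list median of -0.44 log2 (-0.17 relative to the median gene). Ifit3, an interferon-induced tetratricopeptide protein gene, stood at 46.0 CPM in the young, on 4.40% of the cells, and 9.38 in the old cells, and Usp18, a negative regulator of the interferon receptor, at 31.7 and 8.68. Most granule genes other than the 3 of the rule were within 1.5-fold. Specific granule genes were higher in 2 of 12, Chil3 and Ifitm6, and lower in 1, Cybb, and gelatinase granule genes were lower in 2 of 11, Adam8 and Vnn3. Trafficking receptor genes were lower in 2 of 10, one of them Cxcr4, the receptor for the marrow retention chemokine, at 259 (221 to 302) and 144 CPM (139 to 149). Actin and motility genes were within 1.5-fold in 19 of 20. Beside the overall background of 6.8% higher and 26.4% lower, these list counts describe the lists and give no test of them.

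**Figure D5:**
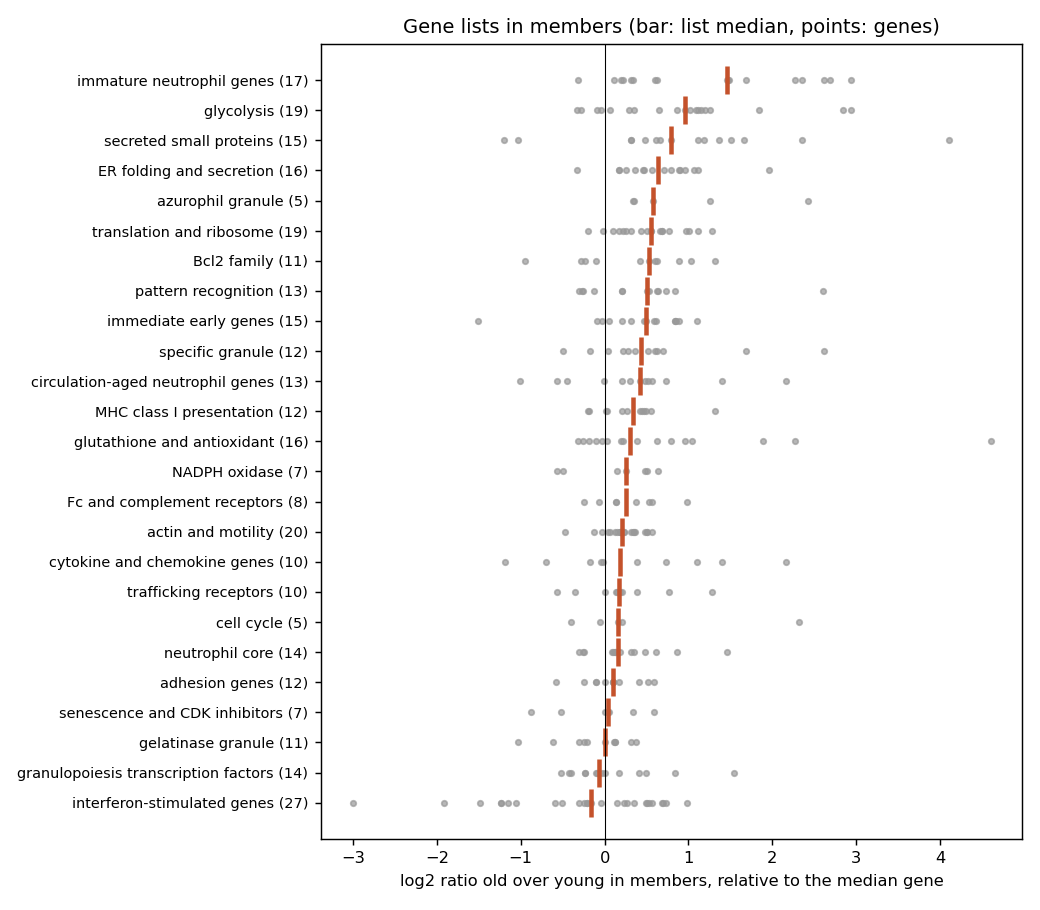
Log2 ratio of old over young in trace-granule neutrophils relative to the median gene (x) for the measured members of 25 gene lists (y, number of genes in parentheses), with grey points for genes and a bar for the list median. Immature neutrophil genes (1.46) and glycolysis (0.96) have the highest list medians and interferon-stimulated genes (-0.17) the lowest.

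The cells of the band varied among themselves. After each cell was thinned to 1000 UMIs, which left out 12 young and 56 old cells, Ngp was detected in 78.5% of young and 70.4% of old trace-granule neutrophils, and in 33.6% of old B-gated cells. Prok2 was detected in 15.2% and 30.4% (28.6 to 32.3), against 34.1% and 62.4% without thinning. Granule-low cells thinned alike had Prok2 in 0.368% and 17.2% and intermediate cells in 9 of 69 and 28.1%, while B-gated cells had it in 0% (upper bound 2.49%) and 3.36%. Il1b was detected in 43.0% (31.9 to 54.7) of young and 65.8% (63.9 to 67.7) of old trace-granule cells. Granule-low cells had it in 86.6% and 84.5% and intermediate cells in 14.5% and 25.2%. In the trace-granule cells Wfdc17 was detected in 31.6% (21.6 to 43.1) and 92.8% (91.7 to 93.8), Ifitm1 in 44.3% and 85.2%, and Ly6g in 31.6% and 52.4%. Cd177 had nearly the same share in both, 31.6% and 32.3%, and Lcn2 had 92.4% and 92.9%.

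Within the old band, levels shifted with the granule share. From 0.1% to 0.2% up to 0.4% to 0.5% of UMIs, Cd177 went from 395 to 809 CPM, Ifitm6 from 2403 to 4328, Serpinb1a from 59.3 to 169 and Lcn2 from 5502 to 8444. Over the same ranges Il1b went from 2072 to 616 CPM, Csf3r from 2093 to 1148, Wfdc17 from 9110 to 5472 and Ifitm1 from 6465 to 3548. Prok2, at 538 to 677 CPM, and Mmp9, at 1672 to 2189.8, varied less. The young band held 46, 28, 13 and 4 cells in its 4 ranges, so its upper end rests on few cells. There Cd177 stood at 438 CPM below 0.2% and 614 above it, Ifitm6 at 996 and 1261, Lcn2 at 4451 and 5081, Wfdc17 at 656 and 473, and Il1b at 758 and 710. Ifitm1 went the other way from the old library, from 619 to 1043 CPM, and Csf3r stood at 1728 and 1684.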

How the data were processed

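Single-cell RNA sequencing was done on sorted blood neutrophils of 2-month-old and 24-month-old mice, 1 library per age. The values are raw UMI counts per gene and cell barcode as deposited by the authors, for 32285 genes, made with Cell Ranger 7.2.0 per the file headers and with the genome build mm10 per the submitters' processing notes. Barcodes have 16 bases. The annotation release and the cell calling settings are not given in the sources used here.

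Counts were summed over the cells of each class with Python 3.11.15, numpy 2.4.6, scipy 1.17.1 and pandas 2.3.3, and plotted with matplotlib 3.10.9. They were divided by the summed UMIs to give CPM, and log2 ratios used a pseudocount of 1 CPM. Ltf, Camp and Ngp were left out of the genes and totals when classes were compared within a library. Genes at 50 CPM or more in 1 of the groups were compared, list genes from 5 CPM. For shares of cells with a UMI, 1000 UMIs per cell were drawn at random (fixed seed) and shallower cells left out. No doublet caller was run, and cells with at least 0.5% of UMIs from B, T, NK, platelet or erythroid markers were left out in an alternative. The ratio computation was tested on simulated counts with ratios centred on the median gene, whereas the main counts of genes are not centred.

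The rule that defines the cells, the 25 gene lists and the 12 marker lists of other cell types were chosen with earlier results of these data known. Between ages, the 12 highest and 12 lowest ratios were named, against granule-low cells the 12 highest and 12 lowest by the smaller of both libraries' ratios among genes with the same sign, and against intermediate cells 8 and 8. Mitochondrial, ribosomal, haemoglobin, immunoglobulin and T cell receptor genes and unnamed gene models were left out. Up to 3 genes of each list at 10 CPM or more, the label's marks, the granule genes and common neutrophil genes were added, 214 in all, each matched to a GRCm38 position. Other list genes printed were chosen after their values were seen.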

Additional observations from a re-analysis of the deposited data

Results flagged for a closer look

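Vmn2r96, Ebf1 and Cd74 had ratios of old over young with opposite signs in trace-granule and in intermediate neutrophils, and the difference was not tested. Vmn2r96, a vomeronasal receptor gene, had a log2 ratio of -3.79 in trace-granule and 1.71 in intermediate cells, where the young library had none of its UMIs. Ebf1, a B cell transcription factor gene, had -2.88 and 0.67. Cd74, the invariant chain gene of MHC class II cells, had -2.25 and 1.13. In the young trace-granule cells a single cell gave 48.5% of the Vmn2r96, 88.6% of the Ebf1 and 85.4% of the Cd74 UMIs.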

How the results depend on the processing

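No paired analysis was possible because each age has 1 library, and for the same reason no library could be left out. Of the shares and counts of genes recomputed under the alternatives, 97 stayed close to the reported value and 37 moved. Of the ratios of single genes and the Ngp shares of granule UMIs, 2220 stayed on their side of 1.5-fold or within the reported interval. Among the ratios 24 dropped below 1.5-fold, 19 passed it and 3 reversed, and the 8 values that moved were Ngp shares. A change of sign was looked for only in ratios that had reached 1.5-fold. The 3 reversals were Cd74 between ages, at 0.064 with an upper limit of 0.3%, 1.45 without cells with markers of other types and 1.44 when cells also needed 2000 UMIs. The share of gated neutrophils was 0.477% young and 8.31% old with a lower limit of 0.2%, and in the old library 20.3% with an upper limit of 0.3%, 14.5% with free RNA subtracted and 9.57% above the 99th percentile of lymphocytes. Between ages, 396 genes were higher after thinning to 1000 UMIs, 368 once ratios were centred on the median gene and 101 under a floor of 100 CPM, and 274 and 392 were lower under the last 2 settings. Against granule-low cells, the genes higher and lower in both libraries were 72 and 263 with a lower limit of 0.2%, 21 and 23 with an upper limit of 0.3%, 54 and 161 with free RNA subtracted, 69 and 266 above the 99th percentile, 62 and 32 without S100a8 and S100a9, 63 and 14 relative to the median gene, and 19 and 34 with the floor of 100 CPM. The lower genes alone moved to 80 with 2000 UMIs and no markers of other types, 9 with equal weight per cell and 27 after thinning. Against intermediate cells, 86 were higher and 36 lower with a lower limit of 0.2%, 85 and 106 relative to the median gene, and 100 and 40 with the floor of 100 CPM. There, 84 were higher above the 99th percentile, 235 after thinning, and 132 were lower without S100a8 and S100a9. Prok2 was detected in 42.8% of old cells thinned to 2000 UMIs. The cause of these shifts was not tested. The filter at the 99th percentile acted on the trace-granule cells alone, through the 3 genes that chose them. The 99th percentile of lymphocytes, the 2000 UMIs without markers of other types and the Ngp share less the B-gated level were chosen after seeing the data. The 91 young cells, with 629972 UMIs in all, limit the precision of each comparison with them.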
